A study of Mus musculus with 7 samples.

Results

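The early window comprised the colon of C57BL/6 mice at embryonic days E13.5, E14.5 and E15.5, 3 of the 7 arrays of a developmental series that continues with E16.5, E17.5, E18.5 and adult colon at 8 weeks after birth. All mice were of the inbred C57BL/6 strain with no experimental treatment, total RNA of the colon was hybridized to Affymetrix mouse genome arrays, and each stage had 1 array. Whether an array held 1 embryo or a pool is not given in the sources used here. Every value below is a log2 intensity normalized by robust multichip analysis (RMA), so that a difference of 1 is a 2-fold difference, and a gene with several probe sets was given their median. With 1 array per stage there is no replicate check of any difference between stages, and no SD or p-value can be attached to one. Genes whose level went in 1 direction from E13.5 through E14.5 to E15.5, with a total log2 difference of 1 or more, were taken as members. They numbered 299 of 18194 genes (1.64%), of which 148 rose (0.813%) and 151 fell (0.83%). These counts describe the arrays that chose the genes. Over the same arrays 8101 genes (44.5%) were monotone by any amount, 3770 upward and 4331 downward.

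In this window the mouse hindgut is still a simple tube. Its endodermal lining is a stratified epithelium that has not yet formed the crypts and surface cells of the mature colon, and it is surrounded by mesenchyme in which circular smooth muscle is forming, by neural crest cells that have migrated along the gut to build the enteric nervous system, and by an outer mesothelium. Goblet cells, which secrete mucus, and colonocytes, which absorb water, salts and short-chain fatty acids, appear later in gestation. Primitive red cells from the yolk sac, which carry embryonic globins, are replaced over the same days by definitive red cells from the fetal liver.

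The tissue label was compared with defining markers before any change was read. The caudal-type homeobox gene Cdx2, which sets intestinal identity, was at 8.58, 8.75 and 8.81 on the E13.5, E14.5 and E15.5 arrays, and the epithelial cadherin gene Cdh1 at 10.69, 11.07 and 10.82. The enteric smooth muscle actin gene Actg2 was at 11.23, 11.56 and 11.22, and the neural crest receptor gene Ret at 8.84, 8.67 and 8.80. Other markers of these kinds read lower. The smooth muscle genes Cnn1, Myh11 and Des were at 7.86 to 8.79, 7.17 to 8.19 and 5.84 to 6.09, and the hindgut gene Cdx1 at 5.60 to 6.04. Acta2, of smooth muscle, was at 5.25, 5.40 and 5.16 by the median, although its brightest probe set was at 12.23, 12.40 and 12.18. The median over probe sets can thus hide a bright one. The hindgut gene Hoxd13 was at 6.96 to 7.16, whereas Hoxa13 read 5.04 on all 3 arrays, below more than 75% of genes. Among markers of neighbouring organs, Pdx1 of the duodenum and pancreas was at 4.82 to 4.90, Nkx2-1 of the lung at 4.90 to 5.09 and the muscle gene Myog at 4.97 to 5.04. Foregut markers were not all low, since Sox2 was at 6.70, 7.07 and 7.83, above 61.9% to 81.1% of genes, and Barx1, of the stomach mesenchyme, at 5.84, 6.34 and 6.27, above 45% to 55.5%. The serum protein genes Ttr (8.83 to 9.18) and Afp (7.43 to 8.14), which liver and yolk sac express at high level, were above most genes, and Alb was at 6.24 to 6.71. Probe sets differ in brightness, so a low reading is a rough guide to absence only.

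The E15.5 array stood apart from its neighbours. On it 309 genes lay at least 0.5 below both E14.5 and E16.5 and 107 lay at least 0.5 above both, whereas the E14.5, E16.5 and E17.5 arrays had between 7 and 19 genes in either direction. Of the 151 falling members, 49 lay below both neighbours at E15.5 by this margin, and 9 of the 148 rising members lay above both. The deepest readings below both neighbours were outside the members. Ankrd12 was at 7.46, 7.64 and 5.33 and was back at 7.75 at E16.5, and Rb1cc1, which acts in autophagy, was at 7.95, 7.99 and 5.60 and then at 7.33. The difference between the 5′ and 3′ probe sets of Gapdh, which falls when RNA is shortened, was −1.59 at E15.5 and −1.48 to −1.29 on the other embryonic arrays, and that of Actb was −2.14 against −2.11 to −1.96. On the adult array these differences were −2.41 and −2.66, lower than on any embryonic array. Their part in the E15.5 and adult readings, including persistence in the adult, was not tested. The numbers of members, their persistence, the gene lists and the promoter shares are therefore also given below with E16.5 in place of E15.5, an alternative chosen after seeing the data.

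**Figure D1:**
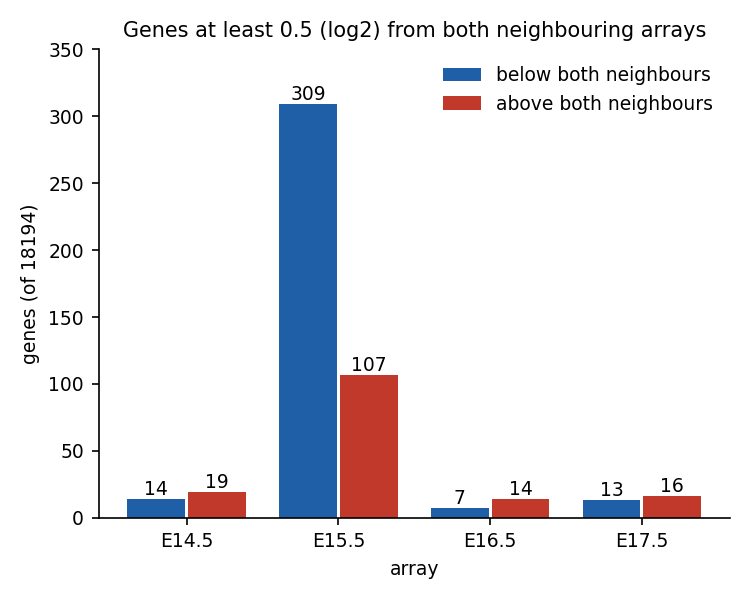
Number of genes (y axis, of 18194) at least 0.5 on the log2 scale below both neighbouring arrays (blue) or above both (red), for the 4 embryonic arrays with 2 embryonic neighbours (x axis). E15.5 has 309 genes below and 107 above, and the other arrays have 7 to 19.

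Most genes moved little. From E13.5 to E14.5 the central 95% of genes lay between −0.39 and 0.43, and from E14.5 to E15.5 between −0.65 and 0.47. A log2 rise of 1 or more was seen in 59 genes (0.324%) in the first step and in 17 (0.0934%) in the second. Falls of that size ran the other way, with 21 genes (0.115%) in the first step and 56 (0.308%) in the second. Over both steps 154 genes (0.846%) were at least 2-fold higher and 170 (0.934%) at least 2-fold lower, of which 6 and 19 were not monotone and so are not members. Between E13.5 and E16.5 these counts were 383 (2.11%) and 159 (0.874%). Of the 148 rising members 100 made their larger step before E14.5, and of the 151 falling members 112 made it after E14.5, onto the array that stands apart. Over all genes the second step was the larger in 10919 (60.0%). The median rising member gained 0.85 and then 0.53, and the median falling member lost 0.44 and then 0.79.

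**Figure D2:**
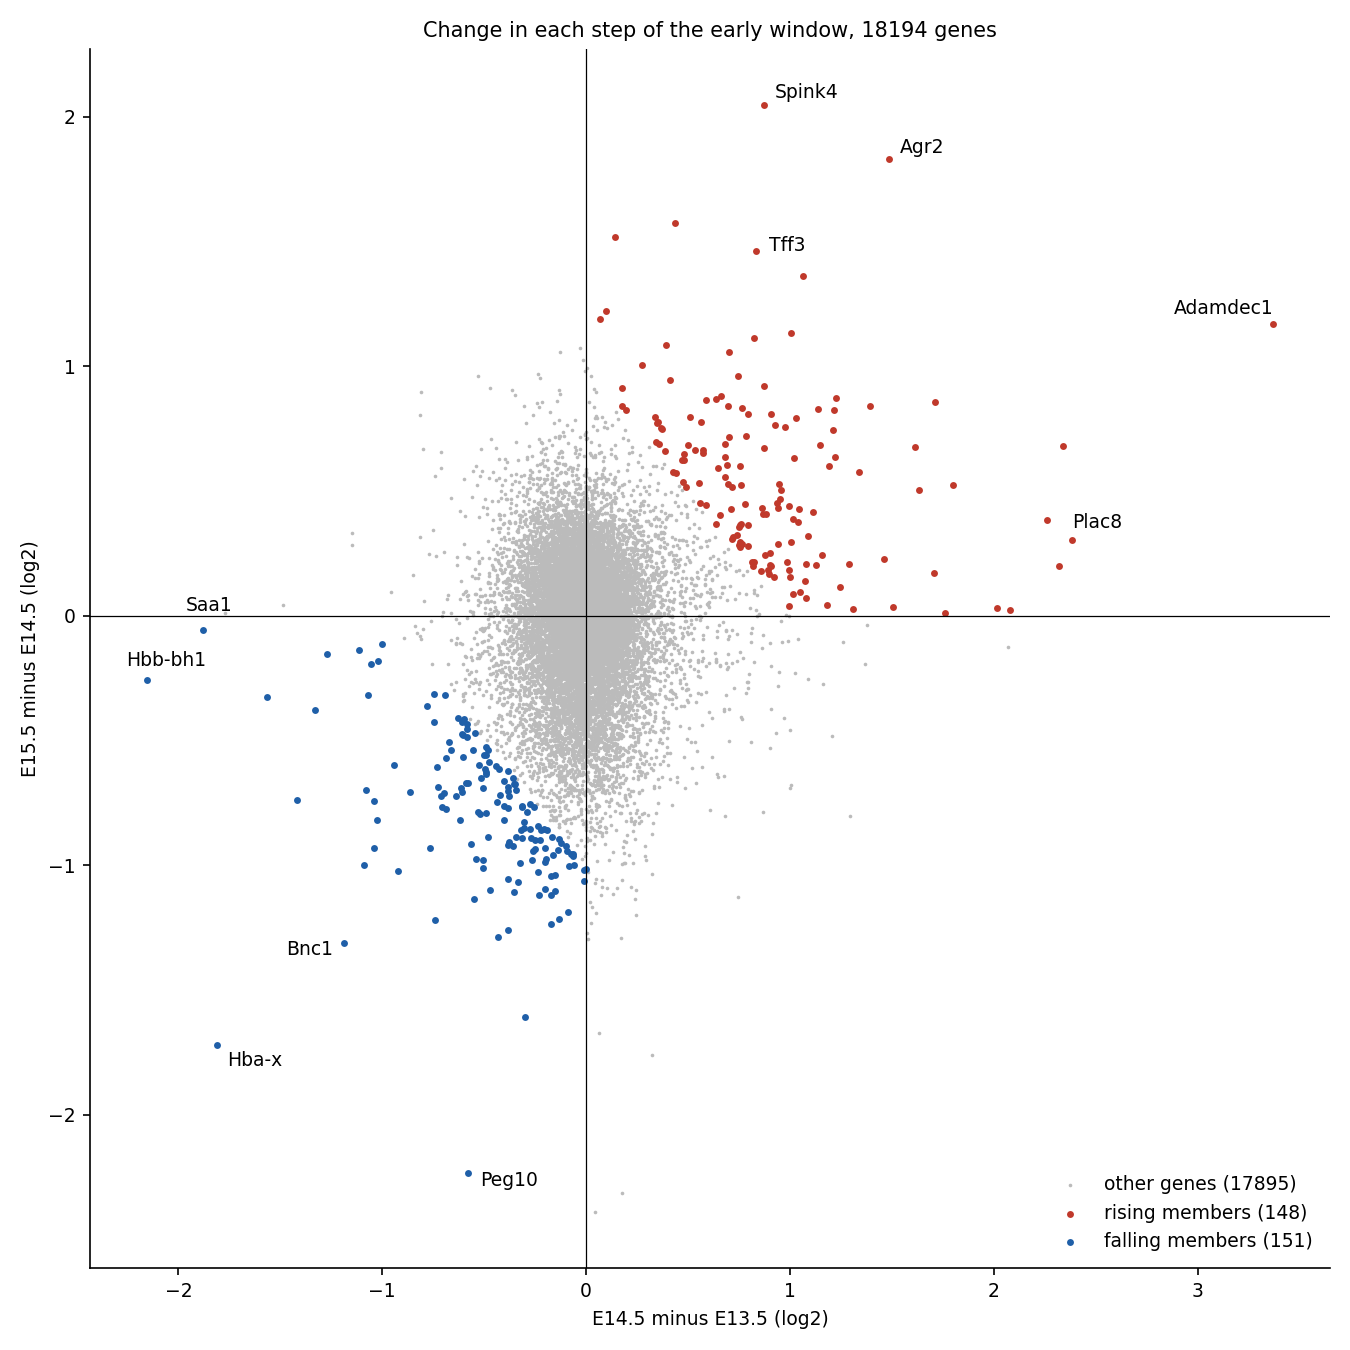
Log2 difference of each of 18194 genes from E13.5 to E14.5 (x axis) and from E14.5 to E15.5 (y axis). The 148 rising members (red) spread along the x axis and the 151 falling members (blue) mostly along the negative y axis. Adamdec1, Agr2, Spink4, Hba-x and Peg10 are among the labelled genes.

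The largest rise of all was that of Adamdec1, which encodes a secreted protease of the ADAM family. Its log2 level was 5.99, 9.36 and 10.53 over the 3 early arrays, then 11.02, 11.54 and 11.63 up to E18.5, with 11.89 in the adult. Most of this 23.3-fold rise lay before E14.5, and no later array fell back.

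Goblet cell genes were among the next largest rises. Agr2, a disulfide isomerase that folds mucins, was at 5.80, 7.29 and 9.12 over the window, and then at 11.65 at E16.5 and 12.30 at E18.5. Spink4, a protease inhibitor of goblet cells, was at 6.61, 7.48 and 9.53, with its larger step after E14.5. Tff3, a trefoil peptide secreted with mucus, was at 7.22, 8.05 and 9.51. Guca2a, which encodes the peptide hormone guanylin, was at 6.73, 7.52 and 8.24. These 4 were the only members among 19 measured genes of goblet cells and mucus, none of which was a falling member, and 16 of the 19 were higher at E15.5 than at E13.5 by any amount (median 0.32, against 0.00 over all genes). With the brightest probe set for each gene, 7 of the 19 were rising members. The mucin gene Muc2 itself differed by 0.26, the secretory transcription factor gene Atoh1 by 0.32 and Spdef, a goblet cell transcription factor gene, by −0.12. The fucosyltransferase gene Fut2, which decorates mucins and is in no list, was a rising member with 5.33, 6.08 and 6.69. Each of these 5 members was higher again at E16.5 than at E15.5.

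Genes of absorptive cells formed the second epithelial group. Of 25 measured colonocyte genes, 4 rose, none fell, and 21 were higher by any amount (median 0.24). Lypd8, a secreted protein that keeps bacteria from the surface, was at 5.88, 7.27 and 8.11. The peptide transporter gene Slc15a1 was at 5.29, 6.52 and 7.39, the carbonic anhydrase gene Car2 at 7.94, 9.44 and 9.48 and the adhesion molecule gene Ceacam1 at 4.98, 6.11 and 6.31. Car2 made nearly its whole rise by E14.5. Mature colonocyte genes such as Car1, Slc26a3 and Aqp8 differed by 0.12 to 0.18.

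Further rising members encode transporters, enzymes and other proteins of absorptive cells. Several of these belong to the brush border, the folded luminal membrane of such cells. This grouping and those named as outside the lists below were made after their values were seen. Slc5a8, which carries short-chain fatty acids and lactate with sodium, was at 5.06, 7.38 and 7.58. The calcium-binding protein gene S100g was at 6.97, 8.98 and 9.02, the peptidase genes Enpep and Mep1a at 7.84, 9.60 and 9.61 and at 6.15, 7.09 and 7.52, and the disaccharidase gene Mgam at 10.03, 11.03 and 11.19. Myo1a, the brush border myosin, was at 5.83, 6.54 and 7.06, and Cubn, a receptor for endocytosis, at 6.38, 6.65 and 7.66. For Slc5a8, S100g, Enpep and Mgam the level at E15.5 was within 0.20 of that at E14.5. The brush border members did not all stay high: in the adult, Enpep was at 7.38 and Cubn at 6.79, close to their E13.5 levels, whereas Slc5a8 was at 11.18 and Myo1a at 11.18.

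Other members among the 15 largest rises were Tmem45b, a membrane protein gene (6.04, 8.38 and 9.06), Plac8 (6.72, 9.10 and 9.41), the sulfotransferase gene Sult1d1 (5.51, 7.77 and 8.15), Bnip5 (7.15, 8.87 and 9.72), the mitochondrial creatine kinase gene Ckmt1 (5.33, 7.13 and 7.65) and Tmem236 (4.99, 6.60 and 7.28). Like Adamdec1, all 6 took their larger step before E14.5. For Sult1d1, Ckmt1 and Tmem236 the brightest probe set gave larger rises of 3.20, 3.04 and 4.26 over the window.

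Cell contact and general epithelial genes were also among the rising members. Cldn7, a claudin of tight junctions, was at 10.16, 10.92 and 11.21 and was the only member among 20 pan-epithelial genes, although 18 of the 20 were higher at E15.5 than at E13.5 (median 0.19). The median level over these 20 genes was 7.46, 7.85 and 7.77 on the 3 arrays, and their part in the epithelial rises was not tested. In bulk tissue, fewer cells of a type and less RNA per cell cannot be told apart, and the same holds for more. Outside the lists, the intestinal cadherin gene Cdh17 was at 7.04, 8.35 and 8.38, the lectin gene Lgals4 at 9.05, 11.13 and 11.15, the claudin genes Cldn8 and Cldn23 at 9.39, 10.57 and 10.61 and at 6.41, 7.41 and 7.85, and the desmosomal gene Dsc2 at 6.73, 7.29 and 7.74. Cldn7, Cdh17, Lgals4 and Cldn8 all took their larger step before E14.5.

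Regulators among the rising members came from several cell types. Cebpa, a transcription factor of differentiating cells that was listed here for adipocytes, was at 7.11, 8.11 and 9.25. Of 16 transcription factor genes of the gut epithelium, Foxa3 (6.79, 7.79 and 7.97) and Hnf4g (4.86, 5.45 and 5.89) rose and none fell. Hoxb13, the most posterior gene of its cluster, was at 6.48, 7.56 and 7.63, the only member of 16 posterior Hox and Evx genes, 12 of which were lower at E15.5 (median −0.20). The bone morphogenetic protein gene Bmp2 was at 6.97, 7.996 and 8.79 and its family's target Id4 at 6.39, 6.86 and 7.49, the only members among 20 genes of that pathway, whose median was −0.02. Myb, a regulator of intestinal progenitors, was at 5.60, 6.17 and 6.94, the only member among 17 stem cell and Wnt target genes. Each of Foxa3, Hnf4g, Hoxb13, Bmp2, Id4 and Myb was higher at E18.5 than at E13.5 by more than 1.

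Sensors of bacteria also rose, outside the lists. Naip5 and Naip6, which detect bacterial flagellin and whose sequences are so alike that probes may be shared, were at 4.74, 5.80 and 7.16 and at 5.89, 7.001 and 7.42. Pglyrp1, which binds peptidoglycan, was at 5.05, 5.98 and 6.74 and stood at 10.88 at E18.5. None of the 22 macrophage genes or of the 22 lymphocyte and mast cell genes was a rising or falling member.

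Short promoter windows are shown for 4 members that hold, close to the start, the letters TTTATG, the core that caudal-type homeobox proteins prefer. RefSeq promoter windows of GRCm38.p6, from 250 bases before to 50 after each start, were matched by symbol for 105 rising members (133 windows), 117 falling members (152 windows) and 18110 windows of measured genes. On either strand TTTATG was in 17.3% of the windows of rising members, 3.95% of those of falling members, 8.19% of those of all measured genes and 11.9% of all 32851 windows. For members chosen with E16.5 in place of E15.5 it was in 13.3% of 332 rising and 7.91% of 139 falling windows, so the low share among falling members was not seen with that choice. The median GC content was 54.3%, 58.3% and 58.3%, so the rising windows were richer in A and T, and the TATA box, TATAAA, was in 20 of 133, 13 of 152 and 1769 of 18110 windows. The CCAAT box was in 40.6%, 37.5% and 37.4%, the letters GGCGGGA of E2F-type sites in 18.8%, 16.4% and 16.7%, AGATAA of GATA-type sites in 9.02%, 5.92% and 8.09%, and the E-box CACGTG in 6.02%, 5.26% and 8.72%. Within 100 bases before the start, TTTATG or its reverse complement CATAAA was in 9 of 133 rising windows (6.77%), 2 of 152 falling windows (1.32%) and 494 of 18110 windows of measured genes (2.73%). With E16.5 in place of E15.5 these shares were 5.42% and 3.6%. A gene can have several windows that overlap and share a match, and the 9 rising windows came from 8 genes. CATAAA shares all but its first letter with the TATA box, and no occupancy of any factor was measured. Below are the 100 bases before the start, 5′ to 3′ on the gene's strand, with the match in capitals, for Agr2 (chr12:35992825-35992924, plus strand), Clrn3 (chr7:135528655-135528754, minus strand), Elavl4 (chr4:110287528-110287627, minus strand) and the falling member Saa1 (chr7:46742981-46743080, minus strand).
Agr2: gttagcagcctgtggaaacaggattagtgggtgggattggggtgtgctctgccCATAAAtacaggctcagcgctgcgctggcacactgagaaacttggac
Clrn3: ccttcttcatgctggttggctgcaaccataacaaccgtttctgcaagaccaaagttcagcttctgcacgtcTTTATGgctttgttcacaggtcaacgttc
Elavl4: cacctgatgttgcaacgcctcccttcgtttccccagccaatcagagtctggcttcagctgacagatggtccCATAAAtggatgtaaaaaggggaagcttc
Saa1: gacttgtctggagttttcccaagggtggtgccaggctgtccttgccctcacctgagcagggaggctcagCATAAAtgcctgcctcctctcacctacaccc
The match began 47 bases before the start in Agr2, 29 in Clrn3, 29 in Elavl4 and 31 in Saa1. Clrn3, a membrane protein gene, was at 8.84, 9.74 and 9.94.

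Most neuronal genes read slightly higher at E15.5 than at E13.5, and few were members. Of 31 genes of the neuron cytoskeleton and synapse, 27 were higher (median 0.22), where 8563 of all 18194 genes were higher and 9069 lower, and 3 were rising members. The brightest probe set for each gene gave 9 rising members and a median of 0.55. Tubb3 and Stmn3 were among these 9, and Elavl4 was not. The neuronal tubulin gene Tubb3 was at 6.88, 7.96 and 8.28, the RNA-binding protein gene Elavl4, whose window is printed above, at 6.68, 7.73 and 7.83, and Stmn3, which regulates microtubules, at 8.69, 9.56 and 10.23. Snap25, of synaptic vesicle fusion, was at 5.33, 6.71 and 6.67 and missed the rule by its second step. Outside this list, the monoamine transporter gene Slc18a2 was at 5.54, 6.55 and 6.64, the Notch ligand gene Dner at 6.49, 7.70 and 8.44, and the synaptic organizer gene Cbln2 at 9.02, 10.10 and 10.30. The glial and progenitor gene Fabp7 was at 6.98, 7.99 and 8.28, the only member among 16 glial genes, of which 3 were rising members by the brightest probe set.

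At E18.5, 26 of the 148 rising members were no longer 1 or more above E13.5. The endocrine and neural transcription factor gene Insm1 was at 5.45, 6.09 and 6.96 and then at 6.18, 5.82 and 5.53 up to E18.5. Sox2, of neural progenitors and the anterior gut, was at 6.70, 7.07 and 7.83 and then at 6.70, 6.18 and 6.20. Dlx2, a homeobox gene, was at 7.90, 8.61 and 8.92 and then at 8.73, 8.15 and 7.48, and Cbln2 stood at 8.24 at E18.5. Together with Rgs16, a regulator of G protein signalling (5.67, 6.03 and 6.72, then 5.57 at E18.5), these had the largest returns toward E13.5 of all rising members. For Insm1 and Sox2 the larger step was the one onto the E15.5 array.

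Several rising members were matrix genes. Lum and Dcn encode small proteoglycans that organize collagen fibrils, and were at 4.43, 6.07 and 6.57 and at 6.48, 7.44 and 7.95. Col14a1, a fibril-associated collagen gene, was at 6.95, 7.90 and 8.37. These were the rising members among 28 collagen and matrix genes, and Postn, the periostin gene, was the falling one (9.53, 8.93 and 8.22, then 9.48 at E18.5). Of the 28, 17 were higher and 11 lower (median 0.08). Lox, which crosslinks collagen and is in no list, was at 5.18, 5.86 and 6.55. Of 23 smooth muscle genes, Myh11, the smooth muscle myosin heavy chain gene, was the only member (7.17, 7.99 and 8.19), and 13 were higher and 10 lower (median 0.16). By its brightest probe set Myh11 was not a member.

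**Figure D3:**
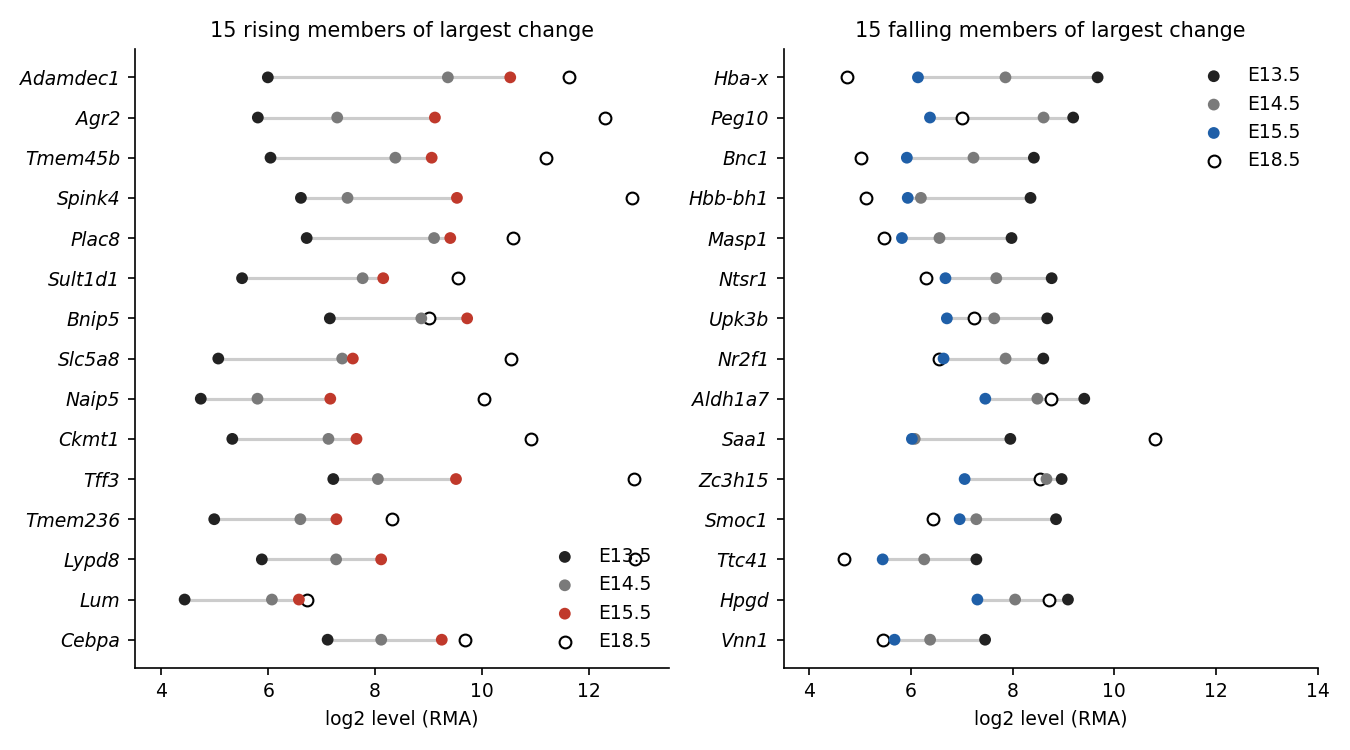
Log2 level (x axis) at E13.5 (black), E14.5 (grey), E15.5 (coloured) and E18.5 (open circles) of the 15 rising members (left) and 15 falling members (right) of largest change, 1 array per point. Adamdec1 heads the rising and Hba-x the falling members, and Saa1 is at 10.80 at E18.5, far above its early levels.

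The largest fall was that of the embryonic alpha-type globin gene Hba-x, which was at 9.67, 7.86 and 6.14, an 11.6-fold fall, and then at 5.73, 5.29 and 4.74 up to E18.5. The embryonic beta-type globin gene Hbb-bh1 was at 8.35, 6.20 and 5.94, with its fall before E14.5. The third embryonic globin gene, Hbb-y, was at 12.61, 12.36 and 12.18 over the window and is not a member. It was at 9.04 at E16.5 and 4.88 at E17.5. Hba-x and Hbb-bh1 were the only members among 23 red cell genes, whose median difference was −0.03, and the heme synthesis gene Alas2 was at 5.95, 6.05 and 6.00. Globin genes resemble each other, and probes may be shared between them.

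Genes of the mesothelium were the group with the most falling members for its size. Of 14 measured mesothelial genes, 5 fell, none rose, and 8 were lower by any amount (median −0.35). Bnc1, a zinc finger gene of mesothelium and other coelomic epithelia, was at 8.42, 7.23 and 5.92. The uroplakin gene Upk3b was at 8.68, 7.64 and 6.71, the transcription factor gene Wt1 at 9.22, 8.28 and 7.68, the retinoic acid synthesis gene Aldh1a2 at 8.55, 7.93 and 7.11, and the membrane mucin gene Muc16 at 5.89, 5.40 and 4.61. At E18.5 all 5 were still at least 1 below E13.5. Not all mesothelial genes followed: Msln, which encodes mesothelin, was at 6.26, 6.35 and 6.55, and the keratin gene Krt19, which gut epithelium also expresses, differed by 0.76.

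Retinoid genes overlapped with this group. Besides Aldh1a2, the retinoic acid binding protein genes Crabp1 (7.26, 6.39 and 5.69) and Crabp2 (7.96, 6.94 and 6.76) fell, 3 of 17 measured genes of retinoid synthesis and response, while the list as a whole had a median of 0.03. Nr2f1, a nuclear receptor gene of the mesenchyme, was at 8.60, 7.86 and 6.64, and was the only member among 25 gut mesenchyme transcription factor genes, 19 of which were lower (median −0.19). The brightest probe set gave 1 rising and 2 falling members there, with 11 genes higher and 14 lower and a median of −0.05.

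Single genes of mesenchymal signalling fell. Gdnf, the ligand that draws neural crest cells along the gut through Ret, was at 8.01, 7.25 and 6.32. Dkk2, a Wnt antagonist, was at 6.62, 5.93 and 5.16 and was the only member among 24 Wnt ligand and modulator genes (median 0.05). With the brightest probe set 3 of the 24 were falling members and the median was −0.02. The chemokine gene Cxcl12 was at 8.15, 7.60 and 6.46, and Tgfb3 at 7.47, 6.74 and 6.13, both outside the lists. No member was among 15 hedgehog pathway genes, but 12 of these were lower at E15.5 (median −0.35), led by the pathway's target genes Hhip (−0.88) and Ptch1 (−0.71), and the ligand gene Shh was at 8.07, 8.24 and 8.27. None of 19 FGF pathway genes was a member, although the brightest probe set gave 1 rising and 1 falling.

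Imprinted and other growth genes of embryonic tissue were lower at E15.5. Peg10, a retrotransposon-derived imprinted gene, was at 9.19, 8.61 and 6.38 and then at 7.39, 7.31 and 7.01, so that it lay below both neighbours at E15.5. It was the only member among 20 oncofetal and imprinted genes, 16 of which were lower (median −0.43). The brightest probe set gave 3 falling members and a median of −0.25. Nnat (10.71, 10.13 and 9.64) and Zdbf2 (10.22, 9.84 and 9.07), imprinted genes in no list, also fell and were at 8.53 and 8.07 at E18.5.

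Cell division genes were lower mainly through the step onto the E15.5 array. Of 29 DNA replication genes 28 were lower at E15.5 than at E13.5 (median −0.48), with medians of −0.11 in the first step and −0.31 in the second, and 3 were falling members. The helicase subunit gene Mcm5 was at 9.06, 8.65 and 7.99, the polymerase gene Pole at 8.60, 8.28 and 7.52 and the clamp loader gene Rfc3 at 7.92, 7.75 and 6.86. By the brightest probe set 23 of the 29 were lower and 6 higher (median −0.455). The falling members were then Gins1, Pole and Rfc3, without Mcm5. Of 30 genes of mitosis and the cell cycle 27 were lower (median −0.39, with −0.07 and −0.34 in the steps), and the kinetochore gene Cenpf (7.94, 7.61 and 6.54) and the kinesin gene Kif20a (8.83, 8.62 and 7.64) were members. By the brightest probe set 25 of the 30 were lower and 5 higher (median −0.34), and the members were Bub1 and Kif20a, without Cenpf. From E15.5 to E16.5 the medians of these lists were −0.05 and −0.04. Cenpf was back at 7.31 at E16.5, and Pole at 8.03. Odc1, the polyamine synthesis gene and the only member among 24 ribosome biogenesis and Myc target genes, was at 9.91, 9.78 and 8.84 (median of the list −0.26), but was not a member by its brightest probe set.

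Others of the 15 largest falls were Masp1, a protease of the complement lectin pathway (7.98, 6.56 and 5.82), the neurotensin receptor gene Ntsr1 (8.77, 7.68 and 6.68), the aldehyde dehydrogenase gene Aldh1a7 (9.41, 8.49 and 7.46), the matrix protein gene Smoc1 (8.85, 7.29 and 6.96), Ttc41 (7.29, 6.26 and 5.45) and the pantetheinase gene Vnn1 (7.46, 6.38 and 5.68). Aldh1a7 was back at 8.76 at E18.5, and the other 5 were at or below 6.44. For Masp1 and Hbb-bh1 the brightest probe set gave smaller falls, of −1.02 and −1.71.

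Some falling members reversed. The acute phase gene Saa1 was at 7.96, 6.08 and 6.02, and then rose over its E13.5 level to 8.46 at E17.5 and 10.80 at E18.5, with 12.57 in the adult colon. It belongs to a family of near-identical copies, so that probes may be shared. Hpgd, which breaks down prostaglandins, was at 9.09, 8.05 and 7.31 and stood at 11.77 in the adult. Hsd11b2, which inactivates glucocorticoids, was at 7.31, 6.93 and 6.23 and then at 8.29 at E18.5 and 11.12 in the adult. The platelet and macrophage chemokine gene Pf4 (6.78, 6.60 and 5.37, then 6.70) and the asparagine synthetase gene Asns (8.76, 8.56 and 7.63, then 9.12) were back at E16.5. For Zc3h15, among the 15 largest falls, the probe sets disagreed: its median was at 8.96, 8.67 and 7.06 and then at 8.30, but its brightest probe set differed by only −0.46.

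Persistence was next described for all members, counting as kept a difference from E13.5 of 1 or more in the same direction. The E13.5 array enters both the choice of members and this count, so a reading that is off on that array would favour both. Of the 148 rising members 124 (83.8%) were kept at E16.5, 123 one day later, 122 at E18.5 and, in the adult, 107. At all 3 later embryonic stages 114 (77.0%) were kept. Over all genes, the shares higher than E13.5 by that size were 2.11%, 3.6%, 4.89% and 9.44% on the 4 later arrays, and 2.0% at all 3 embryonic ones. Of the 151 falling members 69 (45.7%) were kept at E16.5, 90 one day later, 82 at E18.5 and, in the adult, 98, and 63 (41.7%) at all 3 later embryonic stages. Over all genes, the shares lower by that size were 0.874%, 2.0%, 2.41% and 8.65% on the 4 later arrays, and 0.753% at all 3 embryonic ones. With E14.5 as the reference and no minimum size, 93.9% of rising and 91.4% of falling members lay at E16.5 on the E15.5 side. At all 3 later embryonic stages 84.5% and 81.5% did so. The E14.5 array also entered the choice of members, and the share of all genes on that side was not computed.

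Persistence is also given by the step of the larger change. Of the 100 rising members with the larger first step 91.0% were kept at E16.5, and of the other 48 68.8%. Of the 39 falling members with the larger fall before E14.5, 29 were kept at E16.5 (74.4%) and 27 at all 3 later embryonic stages, whereas of the 112 with the larger fall onto the E15.5 array, 40 (35.7%) and 36 were. At E16.5, 36 falling members had returned by at least 50% of their fall, and 34 of these had the larger second step. Only 7 rising members had returned as far. With E16.5 taken in place of E15.5, 353 genes rose and 150 fell by the same rule. They included 123 of the 148 rising members, but 68 of the 151 falling members.

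**Figure D4:**
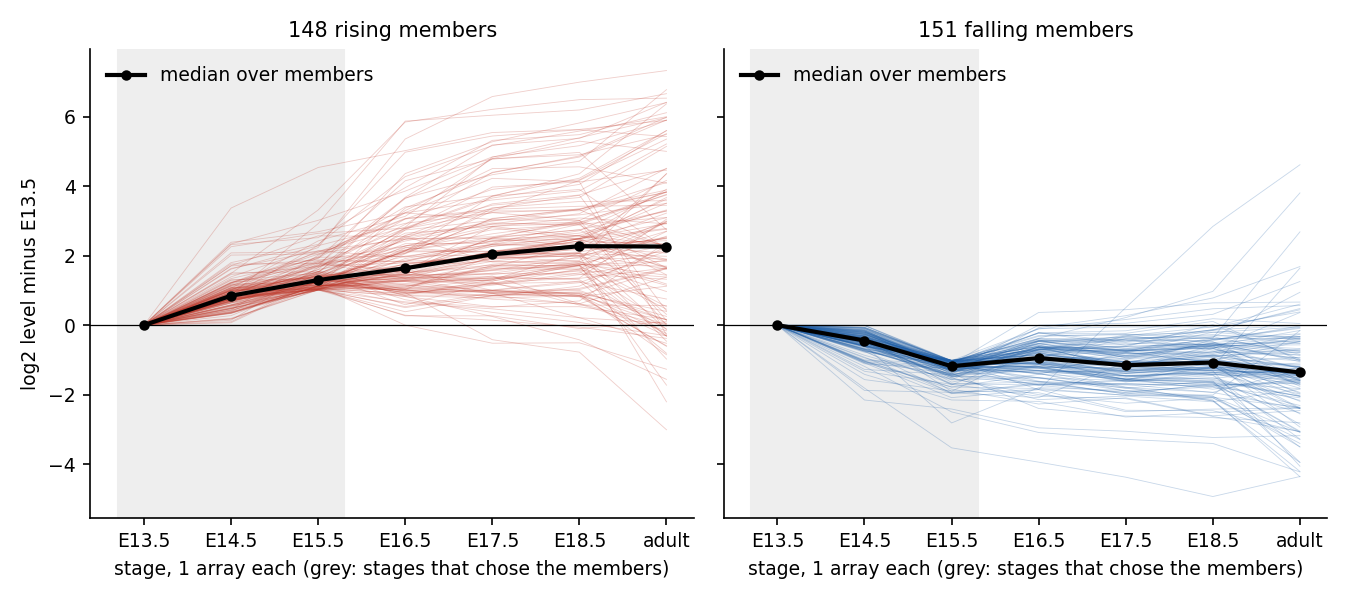
Log2 level minus the level at E13.5 (y axis) over the 7 stages (x axis, 1 array each) for the 148 rising (left) and 151 falling members (right), with thin lines for genes and black points for the median. The median of the rising members goes from 1.30 at E15.5 to 2.27 at E18.5, and that of the falling members from −1.18 at E15.5 to −0.95 at E16.5.

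Many rising members rose further, as did other genes. In the next step, from E15.5 to E16.5, 183 of all genes (1.01%) gained 1 or more and 23 (0.126%) lost as much. Between E15.5 and E18.5, 71 of 148 gained a further 1 or more, against 4.52% of all genes, and 4 of 151 falling members lost as much, against 0.742%. Lypd8 gained the most, from 8.11 at E15.5 to 11.24 at E16.5 and 12.87 at E18.5. It was followed by Pglyrp1, Guca2a (12.11 at E18.5), the membrane protein gene Ms4a8a (9.85) and Cps1, which detoxifies ammonia (8.84 at E15.5 and 12.21 at E18.5). The 4 falling members were Hba-x, Fndc3c1 (5.93 at E14.5, 5.61 at E15.5 and 4.34 at E18.5), Nnat and Ldb2, a LIM-domain binding gene (8.68, 8.34 and 7.67, then 6.60), followed by Zdbf2. In the adult, 25 rising members lay at or below their E13.5 level, among them Cbln2 (6.00), Fabp7 (4.77), Celsr3 (5.94), a cadherin of axon guidance, and Mamdc4 (6.58), which had been at 6.86, 7.29 and 8.87 over the window and 10.99 at E18.5.

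The later embryonic arrays, which had no part in choosing the members, were used to ask whether members went on moving. A line through the 3 arrays from E16.5 to E18.5 was fitted to all 18194 genes in limma, with 1 residual degree of freedom. No stage has a replicate, so its p-values weigh the slope against the deviation of the arrays from the line. They do not measure variation between replicates of a stage. By Benjamini-Hochberg adjusted p in limma, no gene passed 0.05 in either direction (0.0% of all genes). At an unadjusted p under 0.05 the slope was upward in 83 of 148 rising members and downward in 11, and upward in 11 of 151 falling members and downward in 25, where 9.49% of all genes were upward and 5.79% downward. The slope was upward by any amount in 118 rising members and 51 falling members, downward in 30 and 100, and over all genes upward in 8336 and downward in 9858. Slopes level but for rounding error were not set apart in these counts, so they do not measure a lean over all genes. A line over the 6 embryonic arrays broken at E15.5 was also fitted. It shares the early arrays with the choice of members, whose E15.5 readings help set the break, so its counts cannot test later movement. At an adjusted p under 0.05 in limma, its second part was upward for 69 rising members and downward for 10. Of all genes, 8.67% were upward and 3.91% downward. For falling members the second part was upward in 16 and downward in 12, and by any amount upward in 78 and downward in 73.

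**Figure D5:**
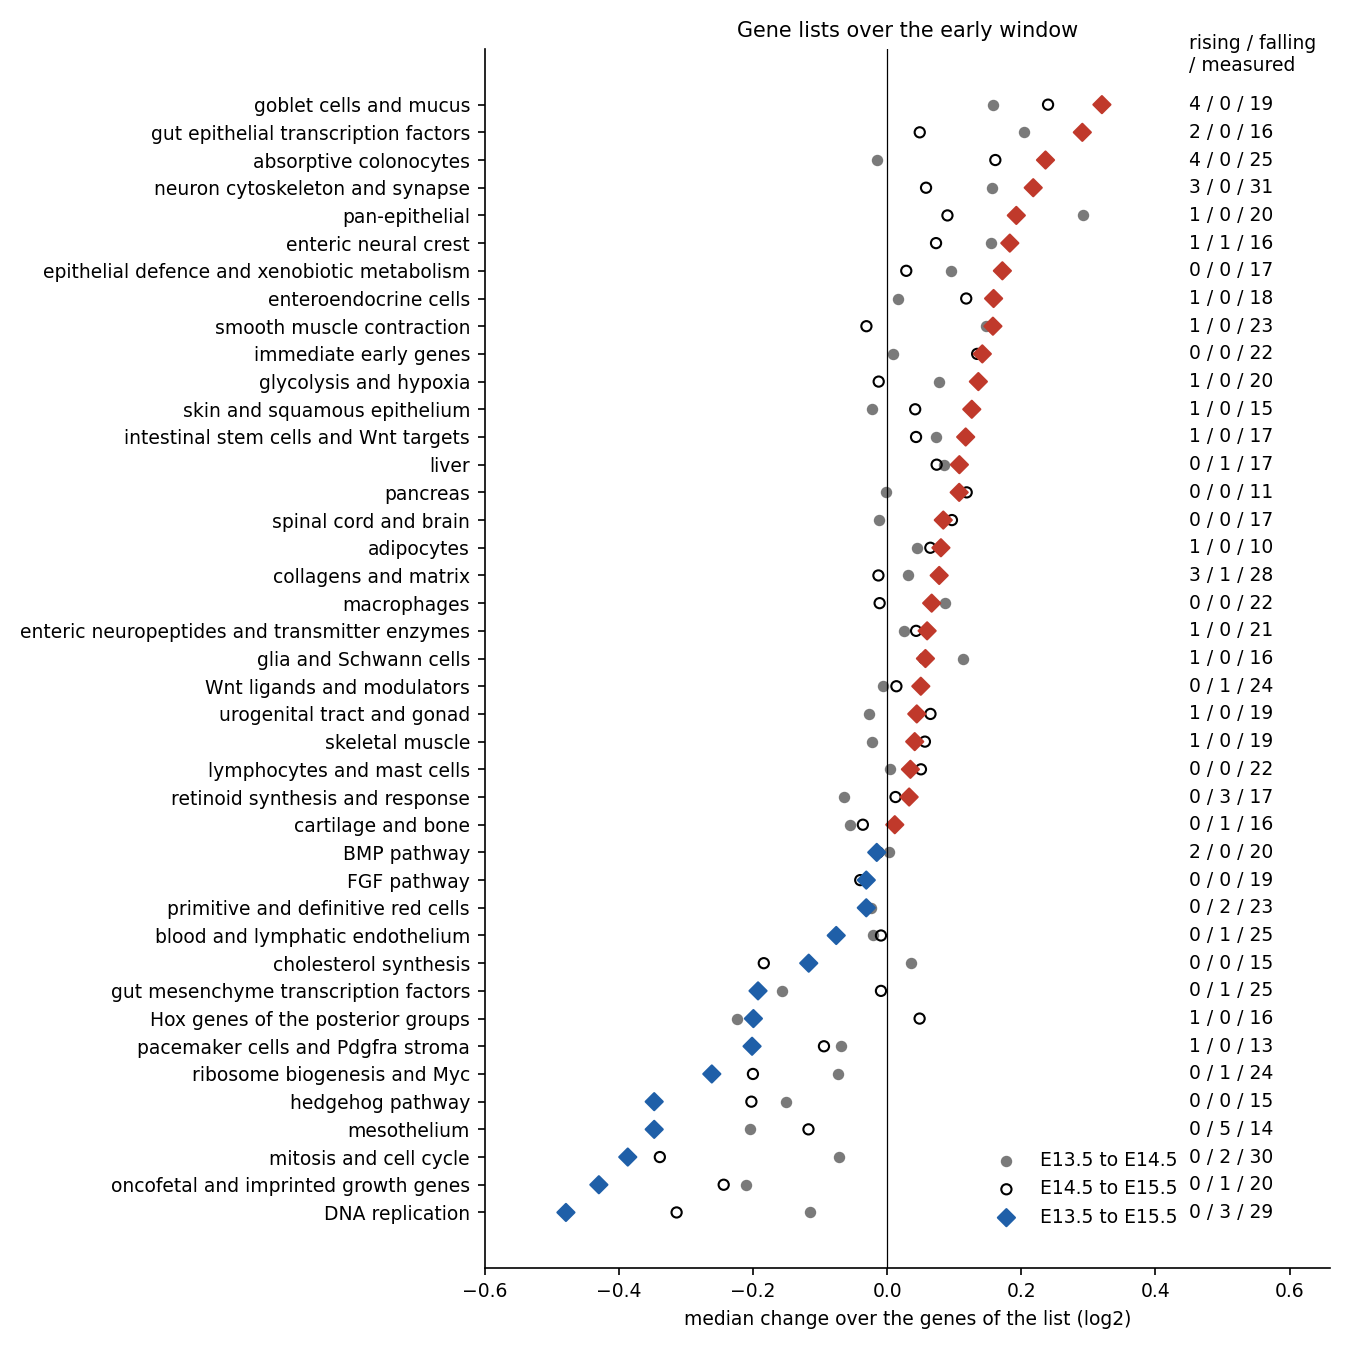
Median log2 difference over the measured genes of 41 lists (rows) from E13.5 to E14.5 (grey), E14.5 to E15.5 (open) and E13.5 to E15.5 (diamonds), with the numbers of rising members, falling members and measured genes at the right. Goblet cells and mucus (0.32) lie at the top and DNA replication (−0.48) at the bottom.

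Across the 41 lists, 32 rising and 23 falling members belonged to at least 1 list, and 116 and 128 to none. Beyond the lists described above, the liver list had 1 falling member, Ambp, a plasma protein gene (7.63, 7.02 and 6.33), of 17, the endothelial list 1, Emcn (7.54, 6.90 and 6.18), of 25, and the cartilage list 1, Col9a1 (7.31, 6.68 and 6.28), of 16. Cyp11a1 (5.42, 6.71 and 6.92), a steroid synthesis gene, rose among 19 urogenital genes, Actc1 (6.46, 7.61 and 7.86), a striated muscle actin gene, among 19 skeletal muscle genes, Perp (7.89, 9.35 and 9.58), of desmosomes, among 15 skin genes, Thbs2 (7.94, 8.63 and 9.16), of the matrix, among 13 pacemaker and stromal genes, and Ero1a (7.53, 7.62 and 8.85), which oxidizes proteins in the endoplasmic reticulum, among 20 glycolysis and hypoxia genes. By the brightest probe set Ero1a was not a member, and the skin and adipocyte lists had 2 rising members each. The pancreas, spinal cord and brain, cholesterol synthesis, epithelial defence and immediate early lists had no member.

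With E16.5 in place of E15.5 several epithelial, neuronal and mesenchymal lists held more rising members. Goblet cells and mucus had 9 of 19 (median 1.54), absorptive colonocytes 8 of 25 (0.69), pan-epithelial genes 4 of 20 (0.80) with 1 falling, gut epithelial transcription factors 4 of 16 (0.46), neuronal genes 6 of 31 (0.40), smooth muscle genes 6 of 23 (0.39) and collagens and matrix 9 of 28 (0.65). Mesothelial genes had the same 5 falling members of 14 (median −0.34), with Krt19 rising, retinoid genes 3 of 17 and red cell genes 3 of 23, and oncofetal and imprinted genes had 5 of 20 (−0.40). DNA replication had no member, although all 29 genes were lower (median −0.51), and mitosis had 2 of 30, all 30 lower (−0.45). The ribosome biogenesis list had none (−0.31), and Wnt ligands and modulators had 2 falling members (−0.05). Among the members lost with this choice were Myb, Sox2, Insm1 and Tubb3 of the rising and Postn and Emcn of the falling.

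Members nearest to the threshold differed little from genes just outside it. The rising members of least change were Lzts3 (5.67, 6.31 and 6.68) and Apol7a (4.98, 5.40 and 5.98), and the genes just outside were Timd4 (4.86, 5.29 and 5.86) and Glce (5.39, 5.39 and 6.38). The falling members of least change were Dck (7.22, 6.83 and 6.21) and Klk8 (8.05, 7.36 and 7.05), and just outside were Ntan1 (8.11, 8.09 and 7.11) and Ccdc59 (9.49, 9.25 and 8.50). Of the 51 rising members with several probe sets, 48 had all of them higher at E15.5 than at E13.5, and of 65 such falling members 45 had all of them lower.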

How the data were processed

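The authors deposited log2 values for 7 arrays of mouse colon, normalized by RMA, which corrects background, equalizes the distributions of the arrays and summarizes probes. For this step affy 1.22.1 and R 2.9.2 are given in the processing notes of the submitters. RMA hides a shift shared by most genes. Probe sets were named through the platform annotation, with symbols updated by gene identifier against a RefSeq table of GRCm38.p6 (18033 of 18195 matched). Of 45101 probe sets, 34958 with a single gene were used, and 932 with several and 9211 with none were left out. The median per gene was taken, with no filter on dim genes. Array intensities carry no read depth, so precision is limited by how few arrays there are.

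Stages came from the sample labels, with 1 array each. limma 3.58.1 in R 4.3.3 fitted the late slope (lmFit, eBayes), on 1 residual degree of freedom, and was tested on simulated data. Python 3.11.15 with pandas 2.3.3 was used otherwise.

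The members and the 41 gene lists were chosen with earlier results of these data known. Named genes were the 15 members of largest change in each direction with a standard symbol, the 3 genes of largest change in each list, the genes next to the threshold, the members of largest return or further change, those of largest single steps, and tissue markers. Other members named were chosen after their values were seen. Alternatives tried were the brightest probe set per gene, a filter removing the dimmest 25% of genes, arrays centred on their medians, other size thresholds, a minimum step of 0.25, agreement of probe sets, no order of the middle stage, other references and sizes for kept members, eBayes with trend and robust settings, a line broken at E15.5, E16.5 in place of E15.5, and splitting members by their larger step.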

Additional observations from a re-analysis of the deposited data

How the results depend on the processing

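No paired analysis was possible because each stage has 1 array and the labels give no replicate numbers, and no array could be left out as a replicate. With the brightest probe set (by mean) for each gene, 114 genes were at least 2-fold higher in the first step and 40 in the second, and there were 247 rising and 223 falling members. A total change of 1.5-fold gave 496 rising and 948 falling members, and 3-fold 41 and 20. With E16.5 in place of E15.5, chosen after seeing the data, 353 genes rose, and 92.7% of the 150 that fell were kept at E17.5 and 92.7% at E18.5. The share of falling members kept at E16.5 was 76.2% when 50% of the change sufficed, 91.4% on the side of E14.5 and 74.4% among those with the larger first step, a split chosen after seeing the data. At all 3 later embryonic stages these were 64.9%, 81.5% and 69.2%, and on the side of E14.5 it was 82.1% at E18.5. The side of E14.5 sets no minimum size, and the share of all genes on that side was not computed, so these shares are not comparable with those of the main rule. With arrays centred on their median, at an adjusted p under 0.05 in limma, 6 rising members had upward and 1 downward late slopes. Among the falling members 3 were upward and 1 downward. With the line broken at E15.5, which is not independent of the choice of members, these counts were 69, 10, 16 and 12. With the highest probe set the change was 3.20 for Sult1d1, 3.04 for Ckmt1, 4.26 for Tmem236, −1.71 for Hbb-bh1, −1.02 for Masp1 and −0.46 for Zc3h15. None of these named genes changed sign. List medians near 0 did: with the brightest probe set, Wnt went from 0.05 to −0.02, FGF from −0.03 to 0.01, red cells from −0.03 to 0.03 and cartilage from 0.01 to −0.06, and without the dimmest genes FGF went to 0.07 and cartilage to −0.06. With E16.5 in place of E15.5 Wnt went to −0.05, red cells to 0.02 and cholesterol synthesis from −0.12 to 0.14, and 68 genes of the lists were rising members in place of 32. The median late slope of falling members went from −0.05 to 0.00 with the broken line. The cause of these differences was not tested.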

Other observations

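A few genes with large early differences were not monotone. The calcium-binding protein gene S100a6 was at 8.71, 10.78 and 10.65 at E13.5, E14.5 and E15.5 and reached 12.25 at E18.5. The potassium channel subunit gene Kcne3 was at 8.15, 9.52 and 9.32, and the lectin gene Lgals2 at 6.85, 8.11 and 8.004. Prap1, a secreted protein gene of epithelia, was at 8.92, 7.14 and 7.15 and then at 7.92, 9.73 and 10.47 up to E18.5, which resembles the course of Saa1 over the window. Hoxc8 was at 6.995, 5.51 and 5.55. Only Ccdc68 (5.31, 6.60 and 5.80) and Plekhb1 (5.73, 6.73 and 6.05) rose by 1 or more to E14.5 and fell by 0.5 or more to E15.5, and no gene did the reverse.

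The complement gene C1qb, of macrophages, was at 8.79, 9.02 and 8.03 and then at 9.44 at E16.5. The kinase gene Rock1 was at 9.27, 9.33 and 7.66 and then at 9.04. Both lay below their neighbours at E15.5.

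Among the 9160 probe sets that name no gene, with 51 control probe sets left out, 47 rose (0.513%) and 74 fell (0.808%) by the same rule, and among the 932 that name several genes 12 rose and 12 fell. By single probe set, 321 rose (0.918%) and 435 fell (1.24%) of the 34958 that name 1 gene.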
